A study of Mus musculus with 12 samples.

Results

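Genes for superoxide production and removal were followed in mouse peritoneal macrophages (PMφs) by their RNA, and not by superoxide, protein or enzyme activity. The 9 genes were picked by name: Cybb, Cyba, Ncf1, Ncf4 and Rac2 of the NADPH oxidase, the dismutases Sod1 and Sod2, the catalase gene Cat and the mitochondrial carrier Ucp2. They are 9 of the 43278 genes in the deposited table, and all 9 passed the filter on low values in every comparison. PMφs were taken from wild-type C57BL/6J mice aged 8 to 12 weeks, with cells of up to 10 male and female littermates pooled per the methods, by lavage 4 days after 4% thioglycolate, and were used after 18 h in adherent culture. The 12 RNA-seq libraries form 4 groups of 3: control PMφs with no addition, PMφs given 100 µg/ml medium-oxidized human LDL for 24 h (oxLDL), PMφs given 10 ng/ml LPS (LPS), and PMφs given the same oxLDL load and LPS (oxLDL+LPS). The duration of LPS for these libraries is not given in the sources used here. The study's methods describe LPS treatments of up to 6 h. The cells are elicited, not resident, macrophages, and each library is a pool, so the spread between libraries is that between pools and not between animals.

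The phagocyte NADPH oxidase moves electrons from NADPH across a membrane onto oxygen and so makes superoxide. Its membrane core, cytochrome b558, joins gp91phox (Cybb) to p22phox (Cyba), and it becomes active when the cytosolic subunits such as p47phox (Ncf1) and p40phox (Ncf4) dock on it with a Rac GTPase, Rac2 in many leukocytes. Superoxide is turned into hydrogen peroxide by SOD1 in the cytosol and SOD2 in the mitochondrial matrix, catalase breaks hydrogen peroxide down in peroxisomes, and UCP2 is an inner-membrane carrier of mitochondria that has been linked to lower superoxide release. LPS, the bacterial ligand of TLR4, is a standard activator of macrophages, and oxLDL is the modified lipoprotein that macrophages take up through scavenger receptors such as CD36.

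Values are read counts scaled by library, called normalized counts here. A single read was worth 0.7635 to 1.4128 units, which gives 16724982 to 26177459 reads on genes per library. The values summed to 17152972 to 17709731 in the 6 libraries without LPS and to 22071853 to 26384551 in the 6 with LPS. Macrophage markers were detected in full, 8 of 8, with a summed level of 231967 to 347950. Neutrophils also carry the oxidase. Of 10 neutrophil markers Ly6g was at 0 in all 12 libraries and S100a9 at 1 or less. The list summed to 83 to 106 in control, 71 to 76 in oxLDL, 83 to 181 in LPS and 135 to 260 in oxLDL+LPS PMφs. Its genes did not move together. S100a8 went from 31, 34 and 37 in control to 74, 97 and 178 in LPS PMφs, and Camp from 0 to 5, 3 and 1. Cxcr2, the highest of the list in control, went from 38, 43 and 38 to 2, 2 and 1, and Ltf from 6, 25 and 15 to 2, 2 and 1. The 6 mesothelial and fibroblast markers summed to 2775 to 17135 and overlapped between all groups. Xist, which is transcribed in female cells, was at 1 and 2 in the replicate 1 libraries of control and oxLDL PMφs and at 6331 and 3812 in those of LPS and oxLDL+LPS PMφs, so replicate 1 was not the same pool across LPS states. The Y-linked Ddx3y was at 0 to 2 in all 4 replicate 2 libraries and at 439 to 1156 in the others. Transcripts of both sexes were thus present in replicate 3 and in replicate 1 with LPS, of females alone in replicate 2, and of males alone in replicate 1 without LPS. Cybb is X-linked.

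In GENCODE vM21 (GRCm38) Cybb lies at chrX:9435252-9487771, Cyba at chr8:122424776-122432930, Ncf1 at chr5:134220053-134229625 and Rac2 at chr15:78559167-78572783, all on the minus strand, and Ncf4 at chr15:78244801-78262580 on the plus strand. Sod1 lies at chr16:90220754-90226329, Sod2 at chr17:13006846-13040063 and Ucp2 at chr7:100493337-100502020 on the plus strand, and Cat at chr2:103453849-103485160 on the minus strand. Values are sums over the exons of each gene. The study's methods name an earlier GENCODE release for the counting, so lengths and overlaps from vM21 can differ from those counted. RefSeq promoters (build GRCm38.p6) were at hand for 7 of the 9 genes, all but Ncf4 and Rac2, and 5 are shown: those of Cybb, Ncf1 and Sod2, whose RNA differed most with LPS, and those of Sod1 and Cat, whose RNA differed most with oxLDL. Each reads 5′ to 3′ on the gene's strand, and ends before the start: at the base before it for Cybb and Ncf1, and 22, 8 and 7 bases earlier for Sod2, Sod1 and Cat, where annotated exon bases were left out. In the order shown they lie at chrX:9469325-9469574 (minus strand), chr5:134229626-134229875 (minus strand), chr17:13007589-13007816 (plus strand), chr16:90220512-90220753 (plus strand) and chr2:103485161-103485403 (minus strand). Capitals mark matches to an interferon response element (GAAA, any 2 bases, GAAA) in Cybb and Ncf1, to TGACNNNGC (an antioxidant response element) in Sod1, and to GAGGAA (the core bound by PU.1, a macrophage lineage factor) in Sod2 and Cat, each searched on both strands.
Cybb: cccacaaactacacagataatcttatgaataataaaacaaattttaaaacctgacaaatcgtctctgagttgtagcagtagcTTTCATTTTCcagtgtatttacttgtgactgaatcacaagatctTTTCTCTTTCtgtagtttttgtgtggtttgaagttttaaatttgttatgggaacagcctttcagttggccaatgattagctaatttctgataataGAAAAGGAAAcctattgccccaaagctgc
Ncf1: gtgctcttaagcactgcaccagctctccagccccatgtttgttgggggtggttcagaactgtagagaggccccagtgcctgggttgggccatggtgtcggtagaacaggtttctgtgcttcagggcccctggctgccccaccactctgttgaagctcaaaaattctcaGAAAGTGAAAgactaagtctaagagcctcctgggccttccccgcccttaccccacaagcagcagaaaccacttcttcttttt
Sod2: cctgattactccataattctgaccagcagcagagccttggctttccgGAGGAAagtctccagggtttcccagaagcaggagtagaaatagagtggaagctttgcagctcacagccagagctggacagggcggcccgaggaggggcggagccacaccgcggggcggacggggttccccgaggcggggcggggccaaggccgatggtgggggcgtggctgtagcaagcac
Sod1: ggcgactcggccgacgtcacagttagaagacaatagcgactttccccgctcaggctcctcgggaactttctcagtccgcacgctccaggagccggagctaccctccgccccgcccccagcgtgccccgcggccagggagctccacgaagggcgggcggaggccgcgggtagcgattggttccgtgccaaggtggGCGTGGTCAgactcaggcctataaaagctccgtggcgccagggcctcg
Cat: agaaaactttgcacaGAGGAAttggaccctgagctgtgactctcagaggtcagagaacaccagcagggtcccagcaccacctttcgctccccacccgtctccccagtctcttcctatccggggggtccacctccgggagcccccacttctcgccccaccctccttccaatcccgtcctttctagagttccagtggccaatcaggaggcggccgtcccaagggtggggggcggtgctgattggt
Cybb held 3 interferon-type matches, at -168 to -159 and -124 to -115 on the opposite strand and at -29 to -20 on its own strand. Positions here are counted from the RefSeq start, with -1 the base before it, and not from the end of the printed stretch. Ncf1 held 1, at -82 to -73. Of 32851 RefSeq promoters searched over the same window, 250 bases before to 50 after the start, 3.44% had at least 1 such match and 5 promoters, 0.0152%, had 3 or more. The antioxidant-type match of Sod1 lay at -56 to -48 and that of Ucp2 at -66 to -58, both on the opposite strand, and 12.4% of promoters held one. The PU.1 core lay at -203 in Sod2 and at -235 in Cat, and also 10 bases past the start of Cybb on the opposite strand, and 28.3% of promoters held one. The 1 NF-kB type string searched (GGG, any 2 bases, TTTCC) was in none of the 7 promoters and in 1.63% of all. Other forms of NF-kB site were not searched, so their absence is not shown. These are matches of letters in short windows, and no binding was measured.

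Over the 4 groups the 9 genes followed a few patterns. Cybb, Ncf1, Ncf4, Rac2 and Sod2 were high in all 6 libraries with LPS and low in the 6 without, Ucp2 was the reverse, Cyba did not pass in most settings, and Sod1 and Cat were higher with oxLDL within each replicate number.

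**Figure D1:**
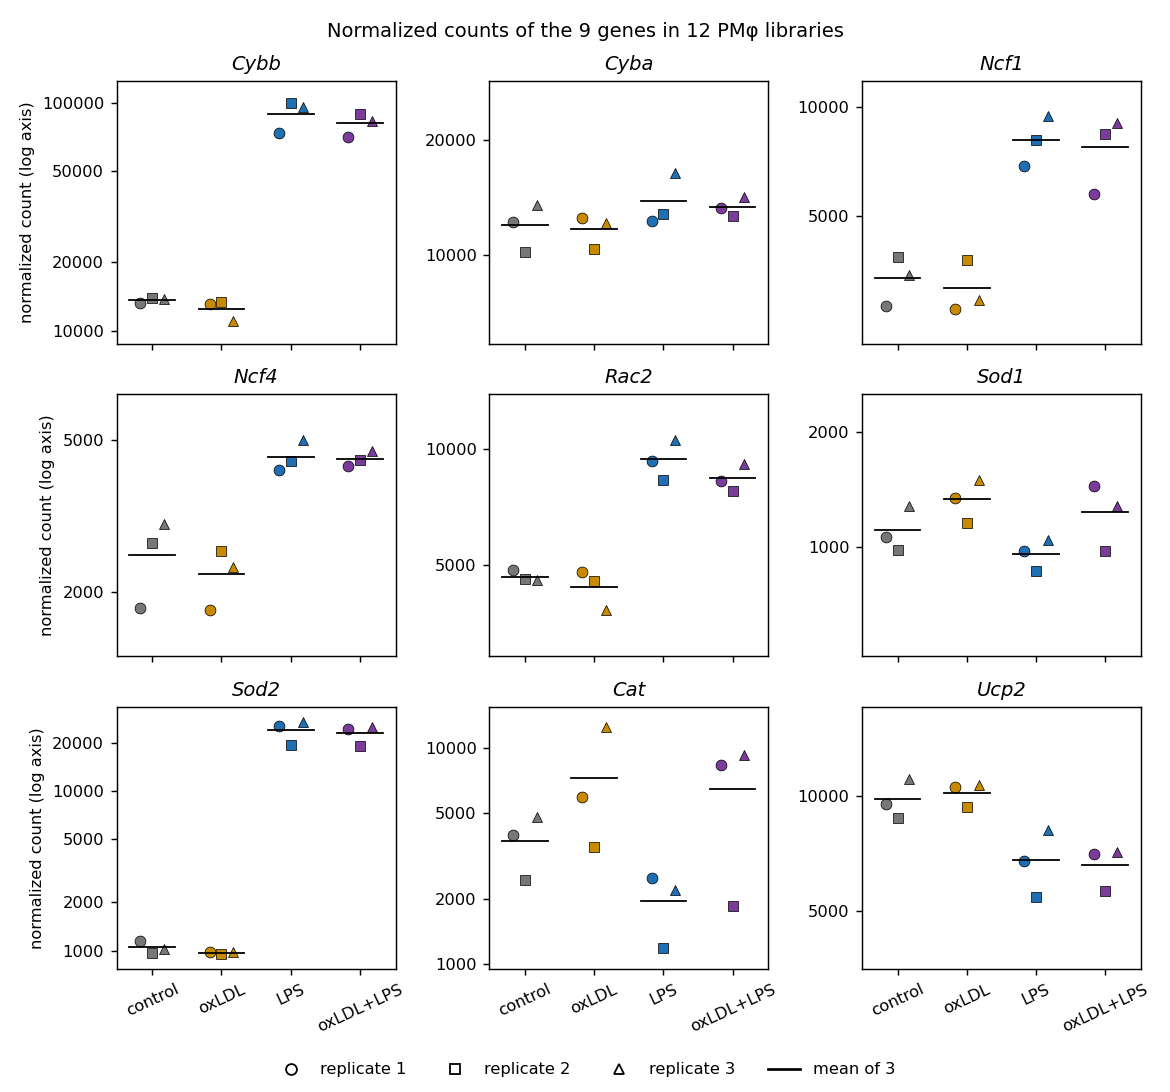
Normalized count of each gene (log axis, a scale of its own in each panel) in the 12 PMφ libraries, by group on the horizontal axis; symbols give the replicate number and lines the mean of 3. For Cybb, Ncf1, Ncf4, Rac2 and Sod2 every LPS and oxLDL+LPS library sits above every control and oxLDL library, with Cybb at 70818 to 99574 against 11005 to 13913.

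The first question was how the RNA of the oxidase genes differed with LPS. LPS was accompanied by higher RNA for gp91phox and for the cytosolic partners Ncf1, Ncf4 and Rac2, whereas p22phox RNA did not pass, and its direction turned with the scaling. Of the 9 genes, 7 passed the test between LPS and control PMφs (limma on log2(normalized count + 1), adjusted p under 0.1), 5 higher and 2 lower. Across all 13023 genes tested 61.7% passed, 31.4% higher and 30.3% lower, so a gene passing this test is common in these cells and the size of each change is given with its call. With the replicate number as a block Sod1 was added, giving 8 of 9 where 68.7% of all genes passed. This block pairs replicate 1 libraries that were not from the same pool.

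Cybb, the catalytic subunit, gave 13240, 13913 and 13862 normalized counts in control, 13098, 13319 and 11005 in oxLDL, 73316, 99574 and 95795 in LPS and 70818, 89613 and 83297 in oxLDL+LPS PMφs. The lowest library with LPS was far above the highest without. The log2 fold change with LPS was 2.70 ± 0.15 (SE, n = 3 against 3), a 6.49-fold difference with a limma adjusted p of 5.69e-06. Between oxLDL+LPS and oxLDL PMφs it was 2.70 ± 0.14 (limma adjusted p = 8.54e-06). These comparisons share no library. In bulk RNA a larger share of cells with the transcript and more transcript per cell cannot be told apart, here and for the genes that follow.

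Cyba, whose product holds gp91phox in the membrane, stood at 12189, 10219 and 13485 in control, 12481, 10379 and 12139 in oxLDL, 12308, 12803 and 16374 in LPS and 13264, 12659 and 14208 in oxLDL+LPS PMφs. The groups overlapped, except that all oxLDL+LPS libraries lay above all oxLDL libraries. The log2 fold change was 0.21 ± 0.15 with LPS alone (limma adjusted p = 0.295) and 0.20 ± 0.11 between oxLDL+LPS and oxLDL PMφs (limma adjusted p = 0.169). With the replicate number as a block the latter passed (limma adjusted p = 0.0735, from 0.00353 to 0.439 over the other settings tried). The direction of Cyba depends on the scaling: with equal library totals the LPS change was -0.28 and after quantile normalization -0.65, where the median of all genes moved to -0.48 and -0.14. Both passed as lower (limma adjusted p = 0.0836 and 0.00158). On top of oxLDL the values were -0.19 with equal totals (limma adjusted p = 0.164) and -0.53 after quantile normalization. The latter passed as lower (limma adjusted p = 0.00353). The median of all genes was -0.40 and -0.13 in these 2 settings.

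The adaptor p47phox (Ncf1) was measured at 2800, 3831 and 3423 in control, 2759, 3757 and 2908 in oxLDL, 6842, 8078 and 9446 in LPS and 5738, 8438 and 9044 in oxLDL+LPS PMφs, without overlap between libraries with and without LPS. Its log2 fold change with LPS was 1.28 ± 0.16 (limma adjusted p = 3.17e-04), and 1.29 ± 0.20 on top of oxLDL (limma adjusted p = 0.00143). In the GENCODE annotation 408 exonic bases of Ncf1, 11.1% of them, lie opposite exons of Gtf2ird2. Strand use in the counting is not given in the sources used here, and Gtf2ird2 itself stood at 140 to 300 in the 12 libraries.

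For p40phox (Ncf4), which binds membrane phosphoinositides, the libraries gave 1814, 2681 and 3014 in control, 1798, 2569 and 2331 in oxLDL, 4172, 4399 and 4987 in LPS and 4268, 4428 and 4666 in oxLDL+LPS PMφs. Control replicate 1 and oxLDL replicate 1 were the lowest, and all libraries with LPS lay above all without. The log2 fold change was 0.88 ± 0.19 with LPS (limma adjusted p = 0.00495) and 1.01 ± 0.14 on top of oxLDL (limma adjusted p = 7.67e-04). After quantile normalization the former was 0.34 and no longer passed (limma adjusted p = 0.144), whereas it passed in every other setting tried, down to 5.46e-04.

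The GTPase gene Rac2 read 4837, 4594 and 4552 in control, 4799, 4543 and 3812 in oxLDL, 9350, 8344 and 10577 in LPS and 8251, 7801 and 9171 in oxLDL+LPS PMφs. Again no library with LPS overlapped one without. LPS was accompanied by a log2 fold change of 1.01 ± 0.11 (limma adjusted p = 1.58e-04), a 2.01-fold difference, and on top of oxLDL by 0.94 ± 0.11 (limma adjusted p = 4.81e-04).

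Between LPS and control PMφs 61.7% of all genes tested passed, 31.4% higher and 30.3% lower, and the counts here stand beside that share. Of 13 other listed components and homologs of the oxidase, 4 passed the filter and 3 passed the test with LPS, all higher. These were Hvcn1, the proton channel that balances the oxidase's charge, at 1.14 ± 0.14, the chaperone Cybc1 at 0.39 ± 0.12 and Rap1a at 0.29 ± 0.10 on the log2 scale. The homologs were close to 0, with Nox1 at 8 or less, Nox4 at 4 or less and Noxa1 at 0 in every library. Of 12 listed regulators of Rac and the phox subunits, 6 were higher and 4 lower with LPS: Prkcd, a kinase of p47phox, changed by 1.30 ± 0.12 and Prkcb, another, by -1.02 ± 0.25 (log2, limma adjusted p = 8.52e-05 and 0.00916).

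Ratios within a library do not depend on its scaling factor. Taken per kb of exon in the basic GENCODE vM21 set, Cybb to Cyba was 0.181 ± 0.028 in control and 0.169 ± 0.030 in oxLDL PMφs (SD, n = 3), and 1.02 ± 0.17 in LPS and 0.954 ± 0.140 in oxLDL+LPS PMφs. The ratio was 5.63-fold higher with LPS and 5.66-fold higher on top of oxLDL, without overlap (exact permutation test, two-sided p = 0.1, the smallest that 3 against 3 allow). Ncf1 to Ncf4 was 1.32-fold higher with LPS, also without overlap, and 1.21-fold higher on top of oxLDL, where the groups overlapped (exact permutation test, two-sided p = 0.3). Across all genes 63.2% had no overlap between LPS and control, so this separation is common. The genes' levels per kb rest on the annotated lengths, but the folds of these ratios between groups do not.

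**Figure D2:**
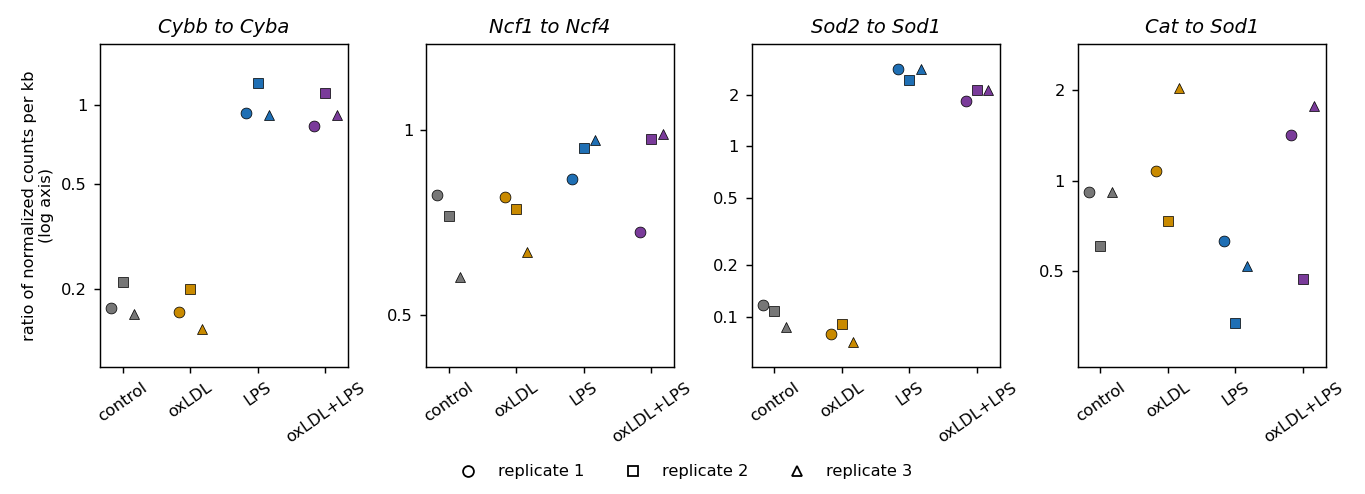
Ratio of normalized counts per kb of basic exon within each library (log axes, one panel a ratio), by group. Symbols give the replicate number. Cybb to Cyba lies near 0.2 without LPS and near 1 with it, and Sod2 to Sod1 goes from 0.104 in control to 2.69 in LPS PMφs (means).

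The dismutases were the next question, since they set how superoxide becomes peroxide. Sod2 showed the steepest LPS difference of the 9 genes and Sod1 showed little. Sod2 gave 1147, 971 and 1023 in control, 977, 957 and 977 in oxLDL, 25258, 19346 and 26857 in LPS and 24395, 18917 and 25051 in oxLDL+LPS PMφs. The highest library without LPS, 1147, was far below the lowest with it, 18917. The log2 fold change was 4.50 ± 0.14 with LPS (limma adjusted p = 3.61e-07), a 22.6-fold difference, and 4.54 ± 0.12 on top of oxLDL (limma adjusted p = 3.65e-07).

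Sod1 was at 1062, 986 and 1278 in control, 1347, 1157 and 1502 in oxLDL, 976, 869 and 1043 in LPS and 1443, 975 and 1282 in oxLDL+LPS PMφs. Neighbouring groups overlapped throughout. The LPS difference was -0.20 ± 0.12 on the log2 scale (limma adjusted p = 0.215), and it passed with the replicate number as a block (limma adjusted p = 0.0799). With equal totals it was -0.68 and passed too (limma adjusted p = 0.00164), where the median of all genes moved to -0.48. Over all settings tried the limma adjusted p ran from 0.00164 to 0.578. On top of oxLDL the LPS difference of Sod1 was -0.13 ± 0.16 (limma adjusted p = 0.568). It passed with equal totals at -0.52, where the median of all genes moved to -0.40. Sod2 to Sod1, per kb of basic exon, was 0.104 in control and 2.69 in LPS PMφs, 25.9-fold apart. The fold does not depend on the exon set, but both ratios do. Sod1 has 641 exonic bases in the basic set and 3970 in the full one, and Sod2 5861 and 10008. Among the relatives, the extracellular dismutase Sod3 was low but higher with LPS, 31, 19 and 11 in control and 95, 91 and 71 in LPS PMφs (log2 fold change 2.12 ± 0.37, limma adjusted p = 0.00185), and Ccs, the copper chaperone of SOD1, was lower by a log2 fold change of -0.55 ± 0.15 (limma adjusted p = 0.0171).

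Cat and Ucp2 were the 2 genes lower with LPS. Ucp2 gave 9493, 8755 and 11084 in control, 10529, 9321 and 10653 in oxLDL, 6755, 5438 and 8159 in LPS and 7065, 5648 and 7124 in oxLDL+LPS PMφs. All libraries with LPS were below all without. The log2 fold change was -0.54 ± 0.16 with LPS (limma adjusted p = 0.0251) and -0.63 ± 0.12 on top of oxLDL (limma adjusted p = 0.00418). Of 6 listed uncoupling and nucleotide carriers, 4 passed the filter and 1 passed the test with LPS, where 61.7% of all genes passed. It was Slc25a27 at low counts, with 31, 35 and 37 in control and 9, 6 and 7 in LPS PMφs. The exons of Ucp2 share 305 bases, 4.36%, with Dnajb13 on the other strand.

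Cat, the peroxisomal enzyme gene, was the most spread of the 9 within groups. It gave 3964, 2437 and 4788 in control, 5922, 3468 and 12486 in oxLDL, 2493, 1183 and 2205 in LPS and 8369, 1862 and 9279 in oxLDL+LPS PMφs. Replicate 2 was the lowest in every group. The LPS difference was -0.94 ± 0.33 on the log2 scale (limma adjusted p = 0.0419), with control replicate 2 just below the highest LPS library, and with the block the SE was 0.11 (limma adjusted p = 2.68e-04), although replicate 1 was not the same pool in these groups. The call was lost when control replicate 1 (limma adjusted p = 0.113), control replicate 3 (0.125) or LPS replicate 2 (0.101) was left out, and in the fit over all 12 libraries (0.210). On top of oxLDL the LPS difference was -0.28 ± 0.69 (limma adjusted p = 0.773), and its sign turned without oxLDL replicate 3 (0.21) or oxLDL+LPS replicate 2 (0.47).

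In the oxLDL-loaded cells LPS was accompanied by the same directions: Cybb, Ncf1, Ncf4, Rac2 and Sod2 were higher and Ucp2 lower, 6 of the 9 genes, where 54.5% of the 12900 genes tested passed, 28.2% higher and 26.3% lower. These 6 and Cyba had no overlap between groups, 7 of the 9, as had 57.6% of all genes. With the block 7 of 9 passed, Cyba being added, against 63.4% of all genes. Here too the block pairs replicate 1 libraries of different pools. The difference between both LPS effects was tested as an interaction over the 12 libraries. None of the 9 genes passed, nor any of 13482 genes, of which 418, 3.10%, had an unadjusted p under 0.05. With replicate number blocked within LPS state 147 genes passed, 1.09% of all, and none of the 9. The interaction of Cybb was 0.00 with a 95% interval of -0.44 to 0.45 on the log2 scale, that of Sod2 0.05 (-0.37 to 0.47) and that of Rac2 -0.07 (-0.41 to 0.28). The interval of Cat was wide, 0.67 (-1.22 to 2.55).

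**Figure D3:**
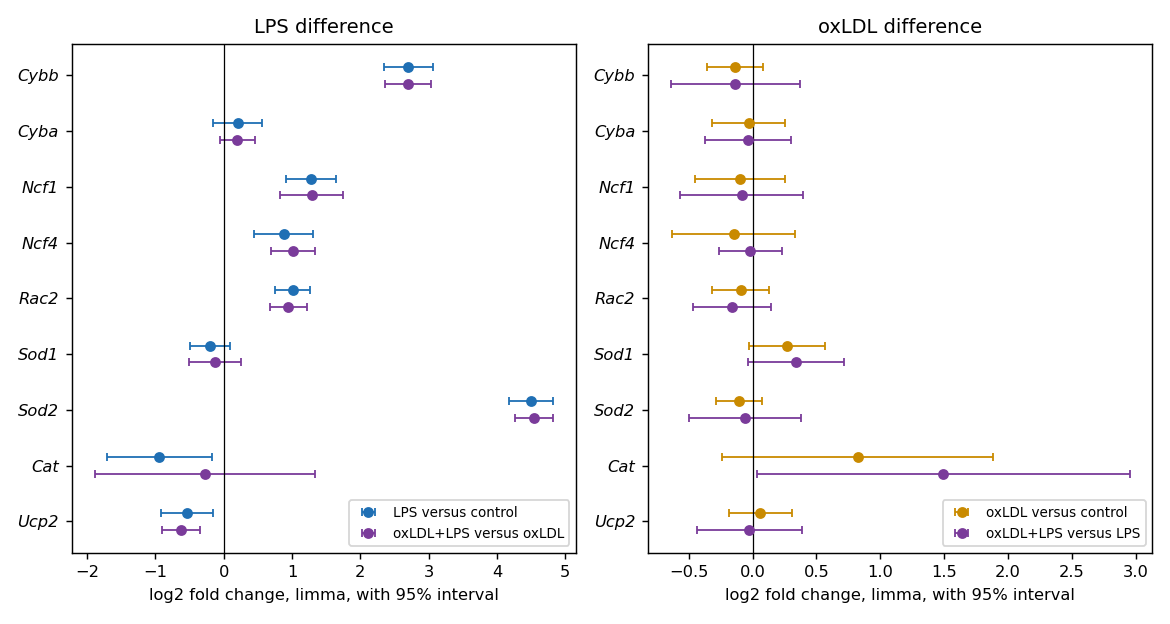
Log2 fold change of each gene with its 95% interval from limma (3 against 3 libraries), for LPS without and with oxLDL on the left and for oxLDL without and with LPS on the right; the horizontal scales differ. The LPS intervals of Cybb, Ncf1, Ncf4, Rac2, Sod2 and Ucp2 exclude 0 in both states, while the oxLDL intervals include 0 for all genes but Cat in the presence of LPS (0.03 to 2.95).

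Whether oxLDL accumulation changed these genes was asked first without LPS. The oxidase genes did not pass with or without a block, and Cat and Sod1 were higher in oxLDL than in control PMφs in each replicate number, as were 17.5% of all genes. No gene of the 9 passed the test without a block, and none of 12751 genes did (limma; 381 genes, 2.99%, had an unadjusted p under 0.05). Same-numbered libraries deviated together, and with the number as a block 601 genes passed, 4.71% of all, with 1.80% of all higher. Cat and Sod1 were among the higher ones. The oxidase genes, Sod2 and Ucp2 had log2 fold changes of -0.15 to 0.06. The 95% interval was -0.36 to 0.08 for Cybb, -0.45 to 0.26 for Ncf1 and -0.63 to 0.33 for Ncf4.

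Cat was higher by 0.58, 0.51 and 1.38 on the log2 scale in replicates 1, 2 and 3. The mean, 0.82, had an SE of 0.45 without the block and 0.13 with it, and passed in the latter (limma adjusted p = 0.00873, and up to 1 over the other settings tried). Sod1 was higher by 0.34, 0.23 and 0.23. Its mean, 0.27, passed with the block (limma adjusted p = 0.0163, and up to 1 over the other settings). With 1 number left out, the blocked fit has 1 residual degree of freedom a gene, so calls in it decide little. Cat passed, at 0.95, 0.98 and 0.54 without replicates 1, 2 and 3 (limma adjusted p = 0.0222, 0.0350 and 1.12e-40). The last of these is too small to be read as strength. Sod1 was lost without replicate 1 (0.23, limma adjusted p = 0.160) or replicate 2 (0.29, limma adjusted p = 0.124). The groups of both genes overlapped.

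In the presence of LPS the same genes stood out. Cat was higher in oxLDL+LPS than in LPS PMφs by 1.75, 0.65 and 2.07 in replicates 1 to 3, and Sod1 by 0.56, 0.17 and 0.30, where 21.0% of all genes were higher in every number. Without the block none of the 9 passed, nor any of 12786 genes (limma; 890 genes, 6.96%, had an unadjusted p under 0.05). With it 2 of 9 passed, both higher, where 13.2% of all genes passed and 4.42% were higher: Cat at 1.49 ± 0.21 (limma adjusted p = 0.00787) and Sod1 at 0.34 ± 0.09 (limma adjusted p = 0.0516). Over the settings tried the adjusted p of each ran up to 0.999. Both blocked calls were lost without replicate 1 or replicate 3, in fits that again have 1 residual degree of freedom a gene. Cat was then at 1.36 and 1.20 (limma adjusted p = 0.124 and 0.365), and Sod1 at 0.23 and 0.36 (limma adjusted p = 0.378 and 0.381). Without oxLDL+LPS replicate 2 the difference of Cat was 2.24 and passed with no block (limma adjusted p = 0.0688). The other 7 genes had log2 fold changes of -0.16 to -0.02, and the signs of Cyba, Ncf1, Ncf4, Sod2 and Ucp2 turned with equal totals.

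Replicate 2 had the smallest oxLDL difference in Cat in both LPS states, and also in Hmox1 and Cd36. Both genes served as RNA checks of oxLDL and do not measure lipid load. Hmox1, heme oxygenase 1, was at 55988, 12622 and 43842 in oxLDL+LPS PMφs and at 16282, 8326 and 8635 in LPS PMφs. It was also higher in LPS than in control PMφs, by 0.71 ± 0.25 on the log2 scale (limma adjusted p = 0.0415). Cd36 was higher with oxLDL by 0.75, 0.71 and 1.34 without LPS and by 1.17, 0.56 and 1.22 with it. The part of uneven loading in the spread of Cat was not tested.

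**Figure D4:**
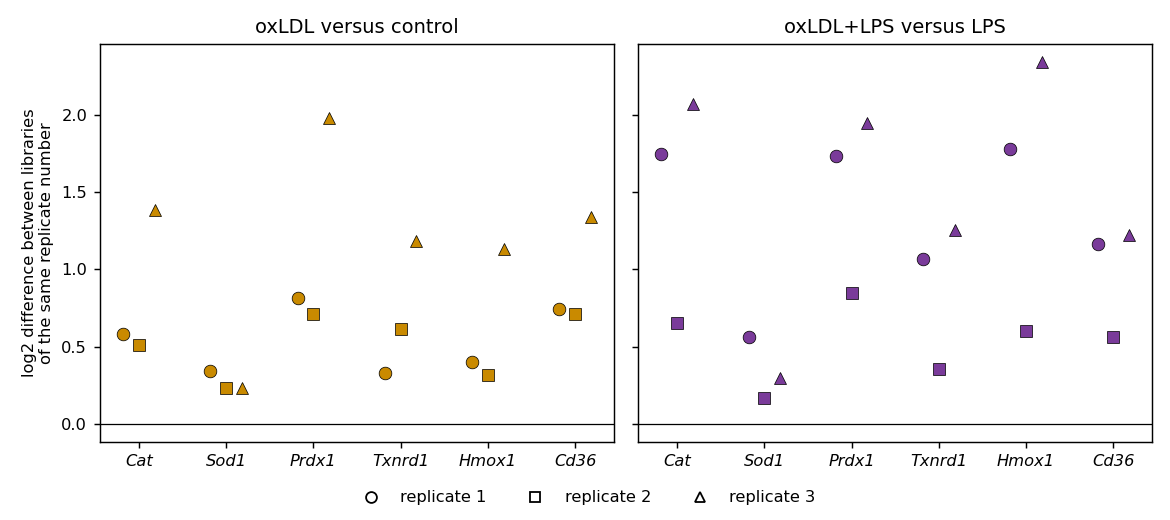
Log2 difference between the oxLDL-loaded and the unloaded library of the same replicate number, without LPS on the left and with LPS on the right. Genes are Cat, Sod1, the peroxide-pathway genes Prdx1 and Txnrd1, and the oxLDL check genes Hmox1 and Cd36. Symbols give the replicate number. All differences are above 0, and with LPS replicate 2 is the lowest for all 6 genes, with Cat at 0.65 against 1.75 and 2.07.

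Other enzymes that remove peroxide were read in the same way. Of 12 others listed, 4 passed with oxLDL alone under the block, all higher, where 4.71% of all genes passed and 1.80% were higher: the peroxiredoxins Prdx1 at 1.17 and Prdx6 at 0.37, thioredoxin (Txn1) at 0.26 and thioredoxin reductase 1 (Txnrd1) at 0.71, on the log2 scale. With LPS present 3 passed, Prdx1 at 1.51, Prdx6 at 0.41 and Txnrd1 at 0.89, where 13.2% of all genes passed and 4.42% were higher. None passed without the block in either state. Among the oxidase genes outside the 9, Hvcn1 was higher with oxLDL under the block in both states, by 0.40 and 0.62. LPS itself left 6 of the 12 higher and 3 lower than control without a block, where 61.7% of all genes passed, 31.4% higher and 30.3% lower. Prdx5 at 2.30, Txnrd1 at 1.49 and Prdx1 at 1.43 were higher, whereas Gpx1, glutathione peroxidase 1, was lower at -0.67. Prdx1 was thus higher with LPS and, under the block, with oxLDL, while Cat was lower with LPS and, under the block, higher with oxLDL.

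The profile of each gene over the 12 libraries was set against 13465 others by the root mean square of the difference in centred log2 values. The nearest to Cat were Osgin1 (0.24), Akr1b8 (0.27) and Ptgr1 (0.29), against 0.99 for the variation of Cat itself, and Sod1 came 257th. The nearest to Cybb were Tnip1 (0.10), Etnk1 (0.10) and Relb (0.11), and to Sod2 Stat2 (0.18), Parp12 (0.20) and Ifi204 (0.20). Ncf1 had Fcer1g (0.09), Ncf4 had Nfe2l2 (0.10) and Rac2 had Pak4 (0.08) as the nearest gene. The cytosolic partners were nearer to each other, 0.24 between Ncf1 and Ncf4 and 0.25 between Ncf4 and Rac2, than to Cybb, 0.73 to 0.90. All 12 points share libraries and scaling, and the measure is a description.

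Levels per kb, on the scale of normalized counts per kb of basic exon, changed order with LPS. In control PMφs Cyba led at 16081 ± 2210 and Cybb followed at 2877 ± 79, while Sod2 was last of the 9 at 178.6 ± 15.4 (SD, n = 3). In LPS PMφs Cybb at 18847 ± 2987 and Cyba at 18587 ± 2982 did not differ beyond their spread. Sod2 had moved to place 3 at 4064 ± 675, and Cat was last at 750.2 ± 263.5. These 2 places rest on the basic exon set. With full exon lengths Rac2 took place 3 in LPS PMφs, Sod2 place 4, Cat place 8 and Sod1 place 9. The order among Sod1, Ncf4, Rac2, Cat and Ncf1 in control PMφs, 1730 to 1163, lay largely within their spread, and it depends on which transcripts count as exons, since Sod1 has 641 bases in the basic set and 3970 in the full one.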

How the data were processed

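RNA from 12 PMφ cultures was sequenced. The authors trimmed reads with Trimmomatic 0.32, aligned them with STAR 2.5.1b to GRCm38 with GENCODE annotation and counted them per gene with featureCounts. The deposited values are a signal: judged by their spacing, read counts per gene after division by a library-specific factor and rounding, called normalized counts. In that deposited list of genes, 25 symbols had become dates. Members and gene lists were chosen with earlier results of these data known. Named genes were the 9 members, listed pathway genes, and the 3 nearest profiles of each member. limma 3.58.1 (R 4.3.3) with a variance trend was run on log2(value + 1) for genes at 10 or more in at least 3 of the 6 libraries compared (12 for the interaction), with Benjamini-Hochberg adjustment over all genes and 0.1 as threshold, after the study. The labels number the replicates alike in each group. Deviations from group means, over 11186 genes, correlated between same-numbered libraries at 0.664 to 0.733 within an LPS state and 0.305 to 0.665 across, so the number was used as a block in an alternative. Intervals cover the spread between these libraries. The study's methods describe independent experiments, in each of which 1 pool of cells was divided among the 4 groups. By Xist this did not hold for replicate 1 across LPS states, so a block there pairs different pools. The folds are on the log2(value + 1) scale. Some listed pathway genes are not reported here.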

Additional observations from a re-analysis of the deposited data

How the results depend on the processing

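Other settings were a pseudocount of 0.5 or 8, either no filter or one that every library had to pass, a joint fit of 12 libraries, the replicate block, equal totals, quantile normalization, no variance trend, and each library left out. The block with 1 number left out, and full exon lengths, were chosen after seeing the data. The LPS calls of Cybb, Ncf1, Rac2, Sod2 and Ucp2 held in all of these, in both oxLDL states. With the replicate block the oxLDL calls went from 0 to 2 of the 9 genes (601 of all genes) without LPS and from 0 to 2 (1682 of all genes) with LPS, and 147 genes passed the interaction. The block changed no other call among the 9 genes than those in the report. With the block and replicate 1, 2 or 3 left out, 214, 139 and 1285 genes passed for oxLDL without LPS, with 1, 1 and 3 of the 9 genes. For oxLDL with LPS present 71 genes passed without replicate 1 and 2945 without replicate 2, with 2 of the 9 in the latter, and for the interaction 763 genes and 1 of the 9 without replicate 2. These fits have 1 residual degree of freedom a gene in a comparison of 2 groups. With no block, leaving out oxLDL+LPS replicate 2 gave 91 genes and 1 of the 9 for oxLDL with LPS present and 6 genes for the interaction, and the joint fit gave 29 genes in the former. All counts with a library left out ran from 0 to 1285, 0 to 2945 and 0 to 763 genes in these 3 comparisons. With equal totals the highest over the lowest group mean went from 7.18 to 5.12 for Cybb, 2.59 to 1.87 for Ncf1, 2.02 to 1.52 for Ncf4, 2.15 to 1.54 for Rac2, 1.39 to 1.94 for Sod1, 24.5 to 17.9 for Sod2 and 1.54 to 2.10 for Ucp2. The summed values differ by LPS state, and equal totals remove this by construction.

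Signs turned with equal totals and quantile normalization, in that order, for LPS without oxLDL in Cyba (-0.28 and -0.65), oxLDL with LPS present in Cyba (0.053 and 0.11), Ncf1 (0.0058 and 0.058), Ncf4 (0.072 and 0.093), Sod2 (0.029 and 0.074) and Ucp2 (0.065 and 0.13), LPS on top of oxLDL in Cyba (-0.19 and -0.53) and the interaction in Cyba (0.087 and 0.13), Rac2 (0.027 and 0.083) and Ucp2 (0.0068 and 0.061) (log2 scale). They also turned with 1 library left out. For oxLDL without LPS the ranges were -0.14 to 0.059 for Cyba, -0.23 to 0.0076 for Ncf1, -0.36 to 0.0019 for Ncf4, -0.16 to 0.0031 for Rac2 and -0.015 to 0.15 for Ucp2. For oxLDL with LPS present the ranges were -0.12 to 0.090 for Cyba, -0.21 to 0.12 for Ncf1, -0.074 to 0.055 for Ncf4, -0.20 to 0.068 for Sod2 and -0.18 to 0.12 for Ucp2. For LPS on top of oxLDL the ranges were -0.71 to 0.47 for Cat and -0.25 to 0.035 for Sod1. For the interaction the ranges were -0.10 to 0.12 for Cyba, -0.14 to 0.10 for Cybb, -0.12 to 0.21 for Ncf1, -0.020 to 0.35 for Ncf4, -0.16 to 0.020 for Rac2, -0.049 to 0.23 for Sod1, -0.10 to 0.17 for Sod2 and -0.24 to 0.057 for Ucp2. The blocked fits with 1 number left out turned signs as well. Without replicate 1 they turned for oxLDL with LPS present in Ncf1 (7.98e-05) and the interaction in Sod1 (-3.84e-05) and Sod2 (-0.023). Without replicate 2 they turned for LPS on top of oxLDL in Cat (0.035) and the interaction in Cyba (0.010) and Ncf1 (-0.030). Without replicate 3 they turned for oxLDL without LPS in Cyba (0.028), oxLDL with LPS present in Cyba (0.046), Ncf4 (0.021) and Ucp2 (0.060) and the interaction in Cybb (-0.062), Cyba (0.018) and Ncf1 (-0.071). The cause was not tested.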

Other observations

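Among the listed regulators of Rac and the phox subunits, the exchange factors did not move together with LPS. Prex1, which loads Rac with GTP, was higher by 0.61 ± 0.18 (log2, SE, n = 3 against 3, limma adjusted p = 0.0202). Vav1 was higher by 0.34 ± 0.12 (limma adjusted p = 0.0446), and Tiam1, at 0.42 ± 0.32, did not pass (limma adjusted p = 0.309). Dock2, another Rac exchange factor of leukocytes, was lower at -0.92 ± 0.13 (limma adjusted p = 7.31e-04) and Vav3 at -0.38 ± 0.16 (limma adjusted p = 0.0815). Across all genes 61.7% passed between LPS and control PMφs. Pak1, a kinase that Rac activates, was lower at -0.39 ± 0.12 (limma adjusted p = 0.0254). Rac1, the other Rac of macrophages, was at 0.20 ± 0.12 and did not pass (limma adjusted p = 0.197).

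The 4 listed thioredoxin genes differed by compartment. This was not a rule for mitochondrial enzymes, since Sod2, of the matrix, was higher with LPS by 4.50 ± 0.14 on the log2 scale. With LPS the cytosolic Txn1 and Txnrd1 were higher by 0.90 ± 0.16 and 1.49 ± 0.25 (limma adjusted p = 0.00202 and 0.00145), and the mitochondrial Txn2 and Txnrd2 were lower at -0.33 ± 0.08 and -0.82 ± 0.13 (limma adjusted p = 0.0115 and 0.00121). On top of oxLDL the 4 thioredoxin changes were 0.77, 1.67, -0.36 and -0.64, all past the test. Across all genes 61.7% passed with LPS alone and 54.5% on top of oxLDL, so passing is common. Prdx3, a mitochondrial peroxiredoxin, was at -0.02 ± 0.11 with LPS and did not pass (limma adjusted p = 0.876).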
